A study of Mus musculus with 24 samples.

Results

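Retinal ganglion cells are the output neurons of the retina, and their axons form the optic nerve. This report follows 10 genes by which these cells are commonly recognised, chosen by gene name from the 56748 genes of the deposited table, and each was found there once. They are the POU-domain transcription factors Pou4f1, Pou4f2 and Pou4f3, the RNA-binding protein gene Rbpms, the gamma-synuclein gene Sncg, the neurofilament genes Nefl, Nefm and Nefh, the cell surface glycoprotein gene Thy1 and the vesicular glutamate transporter gene Slc17a6. The choice was by name, with no threshold on a measured value, although earlier results of these data were known when it was made.

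The 24 libraries of polyA RNA came from 12 C57BL/6J-background mice, each giving a neural retina and the remaining eye cup, which held the retinal pigment epithelium (RPE), choroid and sclera. PRDM13-OE mice were heterozygous, with 1 copy of a cassette at Rosa26 in which a ubiquitous EF-1α promoter drives the reverse tetracycline activator and a TRE3G promoter drives 3xHA-tagged human PRDM13, so the activator is not limited to ganglion cells. Wildtype littermates carried no cassette. Mice of each genotype were untreated or drank 2 mg/mL doxycycline (dox) with 10% sucrose for 72 hours, with 3 mice in each of the 4 groups, and the study states negative tests for the Rd1, Rd8 and Gnat2 mutations.

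Between 15825059 and 24908314 reads per library were counted on genes. The 10 ganglion cell genes together held 23867 to 35358 counts per retina and 1632 to 17110 per eye cup. By Xist and Ddx3y, 8 mice were female and 4 male, and the sexes were not balanced: all 3 PRDM13-OE mice with dox were female, against 2 of 3 wildtype mice with dox. Human PRDM13 was not measured by the mouse table, and mouse Prdm13 was between 52.8 and 60.3 CPM in the PRDM13-OE retinas with dox and between 46.7 and 50.9 CPM in the wildtype retinas with dox. CPM are counts scaled to library size, with TMM factors within a tissue. The tissues matched their labels, since 8 RPE marker genes summed to 57.2 to 371 CPM in the retinas and to 6394 to 49014 CPM in the eye cups.

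In the developing retina, ganglion cells form after Atoh7 makes progenitors competent, and Pou4f2 and Isl1 then turn on much of their program. Pou4f1 and Pou4f3 join later in overlapping subsets. Rbpms marks nearly all ganglion cells in the mouse retina but is also made by smooth muscle and other tissues outside it. Neurofilaments of light, medium and heavy chain fill and widen long axons, gamma-synuclein is abundant in many projecting neurons, and Slc17a6 (VGLUT2) loads glutamate into ganglion cell synaptic vesicles. In RNA from whole tissue, fewer cells of a type and less RNA per cell cannot be told apart.

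The genes differed widely in level within the retina. Levels of different genes are compared here only as the deposited FPKM, fragments scaled to gene length and library size. Nefl was the most abundant, with 119.2 to 148.4 FPKM and a median of 129.2 over the 12 retinas. Sncg (median 91.2 FPKM) and Thy1 (81.9 FPKM) followed, then Nefh (48.6 FPKM) and Nefm (35.9 FPKM). Slc17a6 was at a median of 17.3 FPKM, Pou4f1 at 12.0 FPKM, Rbpms at 6.58 FPKM, Pou4f2 at 5.21 FPKM and Pou4f3 at 4.14 FPKM. The neurofilament genes, Sncg and Thy1 stood above the transporter, and the transcription factors and Rbpms came last. The ranges over the 12 retinas overlapped between Sncg and Thy1, Nefh and Nefm, Slc17a6 and Pou4f1, Rbpms and Pou4f2, and Pou4f2 and Pou4f3. Within single retinas the upper gene of each of these pairs was nevertheless above the lower one in 12 of 12, except Pou4f2 above Pou4f3 in 11 of 12.

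**Figure D1:**
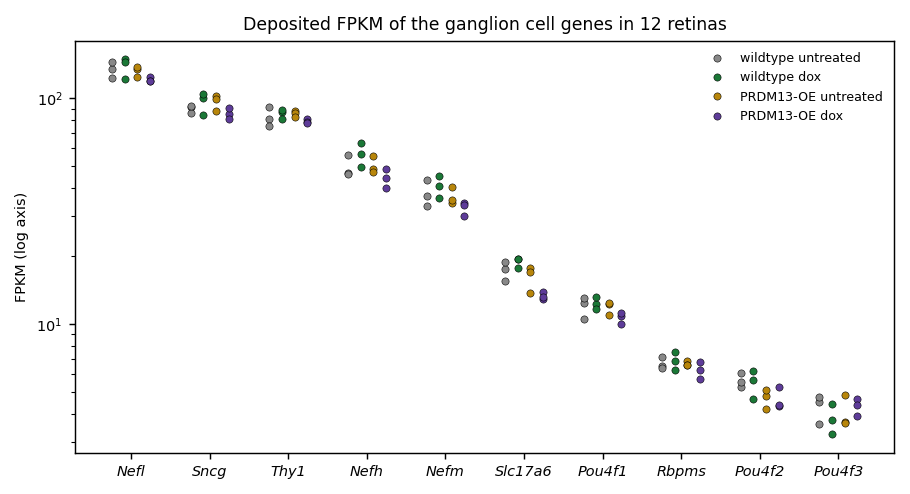
Deposited FPKM (log axis) of the 10 ganglion cell genes in each of the 12 retinas, ordered by median and coloured by group. Nefl is highest, at a median of 129.2 FPKM, and Pou4f3 lowest, at 4.14 FPKM, with each gene spread over a narrow band compared with the distance from first to last.

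In the annotation of the table (GRCm39), Nefl (chromosome 14, 68321312 to 68326544, plus strand) lies wholly within the span of Nefm (chromosome 14, 68320039 to 68362295, minus strand). In GENCODE vM39, 1 of 6 Nefm transcripts reaches across Nefl, and exons of the 2 genes share 1152 bases. The sources used here do not state whether counting used strand, so reads in the shared bases could not be assigned with certainty to Nefl or Nefm. Nefh is on another chromosome (chromosome 11, 4888754 to 4898064, minus strand) and has no such overlap. No gene with reads in the median retina overlapped Slc17a6 (chromosome 7, 51271754 to 51320867, plus strand), Rbpms (chromosome 8, 34272671 to 34419891, minus strand) or the other members. Pou4f1 (chromosome 14, 104699112 to 104705435, minus strand), Pou4f2 (chromosome 8, 79159639 to 79163274, minus strand) and Pou4f3 (chromosome 18, 42527604 to 42530314, plus strand) are on 3 chromosomes. Sncg is on chromosome 14 (34092231 to 34096746, minus strand) and Thy1 on chromosome 9 (43954681 to 43959876, plus strand).

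Across the 12 retinas each gene moved little. The coefficient of variation of CPM ran from 4.91% for Thy1 and 6.43% for Rbpms to 13.2% for Pou4f3 and 14.0% for Slc17a6. Of the 45 pairs of members, Nefm and Nefh followed each other most closely (Pearson's r = 0.95 over the 12 retinas, a description across groups), although their genes share no reads. Nefl and Nefm, which can share reads, had r = 0.88. Pou4f3 and Slc17a6 were at the other end, with r = −0.07. The FPKM ratio of Nefm to Nefh stayed between 0.706 and 0.791 in all 12 retinas, and that of Nefl to Nefm between 3.27 and 3.95.

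The first question was what 72 hours of PRDM13 overexpression did to these genes, asked by comparing dox-treated PRDM13-OE with dox-treated wildtype retinas. Slc17a6, Nefm and Nefh fell, 3 of the 10 members against 7.51% of all 20560 genes tested (edgeR quasi-likelihood test, adjusted p under 0.05). Their changes were small, and 0 of 10 members met the study's definition of a DEG, which also asks for a log2 difference past 1 in either direction, against 2.41% of genes tested. The fitted difference was negative for 9 of the 10 members, all but Pou4f3, against 49.2% of genes, although Thy1 was at 0.01 when scaled to library size alone and Pou4f3 at −0.07 with the lens covariate described further on. The median over the members was −0.16 on the log2 scale against 0.01 over all genes. Of all genes, 1030 were higher and 1545 lower, and scaled to library size alone 2175 were higher and 1007 lower, so the direction of small changes depended on the scaling. No member rose.

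Slc17a6 changed most. It was at 76.8, 83.0 and 78.3 CPM in the 3 PRDM13-OE retinas with dox and at 113.6, 103.0 and 111.7 CPM in the 3 wildtype retinas with dox. All 3 PRDM13-OE retinas were below all 3 wildtype retinas, and the gap between the groups was wider than the spread within either. The fitted level fell by 27.8% (log2 difference −0.47, SE 0.06, edgeR adjusted p = 0.000376). It passed in 14 of 14 alternative analyses, with an adjusted p from 3.94e-11 to 0.0499, the highest with the lens crystallin level as a covariate.

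For this gene RefSeq lists 2 transcription starts on chromosome 7, and the 300 bases around each (250 before and 50 after the start, GRCm38.p6, plus strand) are shown because Slc17a6 carried the clearest change. Capitals mark 2 kinds of letters. One is CAGNTG or its reverse complement CANCTG, an E-box form bound by basic helix-loop-helix factors such as Atoh7 and Ptf1a. The other is ATAATTAAT or its reverse complement ATTAATTAT, the core of sites bound by POU4F factors.
Slc17a6, first start (chr7:51621580-51621879): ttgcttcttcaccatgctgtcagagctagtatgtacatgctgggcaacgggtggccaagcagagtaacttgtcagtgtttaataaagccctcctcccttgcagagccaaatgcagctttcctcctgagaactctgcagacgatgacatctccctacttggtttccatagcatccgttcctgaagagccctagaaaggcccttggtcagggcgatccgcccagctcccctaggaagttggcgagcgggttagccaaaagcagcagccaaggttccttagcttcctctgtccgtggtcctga
Slc17a6, second start (chr7:51624387-51624686): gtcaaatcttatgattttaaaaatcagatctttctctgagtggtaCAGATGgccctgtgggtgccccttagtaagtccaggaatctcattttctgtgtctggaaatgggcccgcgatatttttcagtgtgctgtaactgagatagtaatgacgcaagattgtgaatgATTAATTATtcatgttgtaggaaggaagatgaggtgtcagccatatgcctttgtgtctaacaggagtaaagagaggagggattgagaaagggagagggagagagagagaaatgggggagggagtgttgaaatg
The first window held neither motif. The second held the E-box letters CAGATG at base 46 and ATTAATTAT at base 168, counted from its first base. Among all 32851 promoters of this length in the RefSeq set, 51.4% held the E-box form and 0.274%, or 90 promoters, held the POU4F core, on either strand. Promoters of 4 of the 10 members were matched, with 5 starts in all, and Rbpms, Pou4f3, Nefl, Nefm, Nefh and Thy1 were not. The windows of Pou4f1 and Sncg also held the E-box form and that of Pou4f2 did not. The Pou4f1 window is shown as that of a regulator in the same set, with its 2 E-box matches in capitals, at bases 133 and 210.
Pou4f1 (chr14:104467950-104468249, minus strand): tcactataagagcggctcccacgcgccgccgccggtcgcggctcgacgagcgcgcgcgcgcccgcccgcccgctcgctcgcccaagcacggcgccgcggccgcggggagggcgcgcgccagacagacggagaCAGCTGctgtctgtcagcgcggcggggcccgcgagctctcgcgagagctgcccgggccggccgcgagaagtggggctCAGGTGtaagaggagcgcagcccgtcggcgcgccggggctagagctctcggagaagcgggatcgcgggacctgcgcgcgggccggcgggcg
G and C made up 78.3% of the Pou4f1 window, 69.7% of that of Pou4f2, 61.3% of that of Sncg and 53.7% and 43.0% of the Slc17a6 windows, with a median of 52.7% over all promoters. These matches describe letters only.

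Nefm and Nefh, the medium and heavy neurofilament chains, had smaller changes. Nefm was at 220.3, 215.9 and 193.0 CPM in PRDM13-OE with dox and at 283.9, 225.9 and 250.3 CPM in wildtype with dox, without overlap between the groups. Nefh was at 215.7, 195.9 and 176.2 CPM against 273.9, 213.2 and 240.6 CPM, and here the highest PRDM13-OE retina lay just above the lowest wildtype one. Nefm fell by 17.6% (log2 difference −0.28, SE 0.08, adjusted p = 0.0407) and Nefh fell by 19.6% (−0.31, SE 0.09, adjusted p = 0.0425). Both calls sat close to the threshold, and each held in 6 of 14 alternatives. Without wildtype dox replicate 1, which had the highest level of each in the comparison, their differences were −0.19 and −0.22, with adjusted p = 0.121 and 0.13. Leaving out any one library other than wildtype dox replicate 2 took away 1 or both of these calls, and without that one 4 members passed, all lower, against 5.96% of all genes. Nefl, the light chain, had a log2 difference of −0.16 (SE 0.07, adjusted p = 0.156) that did not pass.

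Among the regulators, Pou4f1 was at 56.2, 57.9 and 51.7 CPM in PRDM13-OE with dox and at 62.2, 58.5 and 65.2 CPM in wildtype with dox. These groups did not overlap, as was so for 3 of the 10 members (Pou4f1, Nefm and Slc17a6, all lower), with 16.3% of all genes lower without overlap and 15.2% higher, and the difference of −0.17 (SE 0.07, adjusted p = 0.118) did not pass. Pou4f2 was at 15.4, 18.7 and 15.5 CPM against 21.6, 16.1 and 19.3 CPM (log2 difference −0.21, SE 0.12, adjusted p = 0.301). Its groups overlapped, and so did those of Pou4f3. Pou4f3 was at 12.4, 11.6 and 10.4 CPM against 9.73, 8.42 and 11.3 CPM, the only positive difference of the set (0.21, SE 0.13, adjusted p = 0.349). The remaining markers, Rbpms (−0.10, SE 0.08), Sncg (−0.13, SE 0.08) and Thy1 (−0.08, SE 0.05), had adjusted p-values from 0.33 to 0.475.

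**Figure D2:**
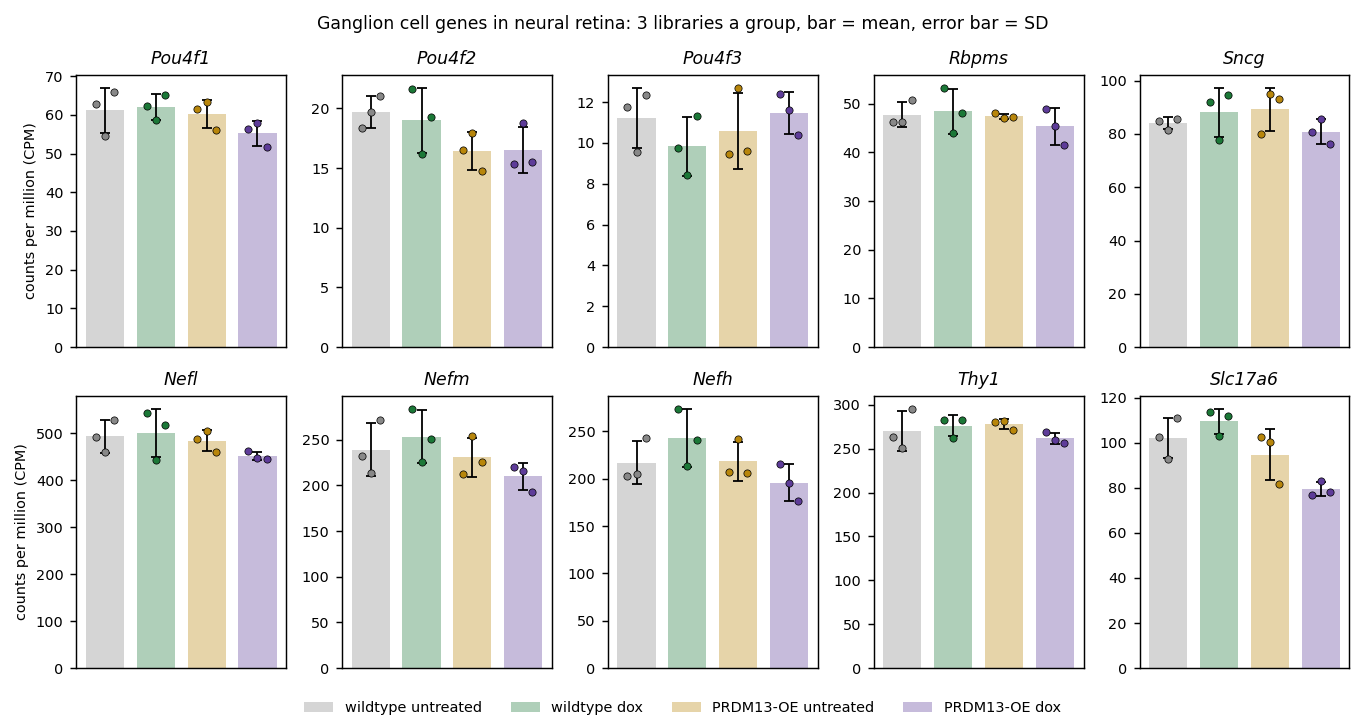
CPM of each ganglion cell gene in the 3 retinas of each group (points), with group means (bars, from 0) and SD (error bars). The PRDM13-OE retinas with dox lie below all wildtype retinas with dox for Slc17a6, at 76.8 to 83.0 against 103.0 to 113.6 CPM, and also, with narrower gaps, for Pou4f1 and Nefm.

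Other transcripts moved in the same comparison. The summed level of 11 lens crystallin genes was 3.49 to 28.1 CPM in PRDM13-OE retinas with dox and 113.6 to 11286 CPM in wildtype retinas with dox, and all 11 fell. The 5 red blood cell genes fell as well, with 0.709 to 1.18 CPM against 31.2 to 77.8 CPM, and Hba-a2 was at 0 in all 3 PRDM13-OE retinas. Of 10 rod genes, 8 fell (summed 53265 to 59577 CPM against 71324 to 74134 CPM), as did 7 of 9 cone genes. With the crystallin level as a covariate over all 12 retinas, 1 member passed, Slc17a6, with a log2 difference of −0.54, and Nefm (−0.28, adjusted p = 0.447) and Nefh (−0.34, adjusted p = 0.338) kept their direction without passing. Without wildtype dox replicate 3, the male of the comparison, 1 member passed by edgeR, Slc17a6 at −0.45 with adjusted p = 0.000738. Of all genes 6.62% were lower and 4.36% higher there, so that count is near the share of all genes. Nefm (−0.28, adjusted p = 0.0619) and Nefh (−0.31, adjusted p = 0.0673) did not pass. The part of lens, blood and photoreceptor transcripts in these differences was otherwise not tested.

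Further genes of the same cells were taken from 4 lists. Of 14 other markers and subtype genes of ganglion cells, 7 fell and 0 rose, with a list median of −0.31. Of all genes tested, 7.51% fell, as given above, and 5.01% rose. They included Penk, the enkephalin precursor (−1.40, SE 0.39, adjusted p = 0.035), Kcng4, a potassium channel subunit used to mark alpha ganglion cells (−0.66, SE 0.07, adjusted p = 8.29e-05), Spp1, osteopontin (−0.39, SE 0.10, adjusted p = 0.0275) and Chrnb3, a nicotinic receptor subunit (−0.35, SE 0.05, adjusted p = 0.00134). Of 18 other regulators, 1 fell (Foxp1, −0.39, SE 0.11, adjusted p = 0.0355) and 0 rose, with a median of −0.15, a count near that share of all genes.

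Of 12 other cytoskeleton and axon genes, 4 fell and 0 rose, with a median of −0.11. These were the potassium channel gene Kcna1 (−0.48, SE 0.10, adjusted p = 0.00783), the sodium channel genes Scn1a (−0.35, SE 0.07, adjusted p = 0.0085) and Scn2a (−0.32, SE 0.08, adjusted p = 0.0238), and the adhesion gene L1cam (−0.31, SE 0.06, adjusted p = 0.00526). Of 10 genes that respond to axon injury, 9 were tested, and 1 rose (Gadd45a, 0.57, SE 0.08, adjusted p = 0.0011) and 1 fell (Csrp1, −0.86, SE 0.10, adjusted p = 0.000203), with a median of 0.01, and these counts too are near the shares of all genes. Penk was far more abundant in the eye cup than in the retina of untreated wildtype mice, with a log2 difference of 4.16. In these retinas 5 of 8 RPE marker genes also fell, with a list median of −0.59, and the part of eye cup transcripts in the fall of Penk was not tested. Several genes of these lists are also expressed by amacrine, bipolar or glial cells, so their counts are not those of ganglion cells alone.

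The remaining retinal comparisons asked what dox, the cassette without dox, and dox within PRDM13-OE mice did. Dox in wildtype retinas gave 0 members by edgeR, 0 at an unadjusted p under 0.05 and 0 by DESeq2. The shares of all genes were 0.00485%, 9.32% and 0.451%. Slc17a6 was at 102.5, 92.9 and 110.8 CPM in untreated wildtype retinas, a log2 difference of 0.10 (SE 0.07) with dox. The untreated PRDM13-OE and wildtype retinas likewise gave 0 members by edgeR, 1 at an unadjusted p under 0.05 and 0 by DESeq2, against 0.00484% of genes. At an unadjusted p under 0.05 were 3.76% of all genes, and 0.0194% passed by DESeq2. The member was Pou4f2, at 16.5, 17.9 and 14.7 CPM in PRDM13-OE and 18.4, 19.7 and 21.0 CPM in wildtype (log2 difference −0.26, SE 0.11, edgeR adjusted p = 0.995).

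Within PRDM13-OE retinas, dox gave 0 members by edgeR, 1 at an unadjusted p under 0.05 (Slc17a6) and 0 by DESeq2. Of all genes 5.00% passed by edgeR, 15.6% had an unadjusted p under 0.05 and 5.69% passed by DESeq2, so 1 of 10 is no more than all genes show. Slc17a6 was at 102.3, 100.1 and 81.7 CPM in the untreated PRDM13-OE retinas, so that the third of them came near the dox-treated ones, and its log2 difference was −0.26 (SE 0.08, adjusted p = 0.118). Without PRDM13-OE untreated replicate 3, Slc17a6 passed. The interaction of genotype and dox over all 12 retinas gave 0 members by edgeR, 2 at an unadjusted p under 0.05 (Slc17a6 and Nefh) and 1 by DESeq2 (Slc17a6). The shares of all genes were 3.03%, 14.4% and 4.12%, to which these member counts are close. Its value for Slc17a6 was −0.36 (SE 0.12, edgeR adjusted p = 0.137) and for Nefh −0.32 (SE 0.14, adjusted p = 0.282). The fall of Slc17a6 in PRDM13-OE was thus shown between genotypes under dox, while the test of whether dox acted differently in the 2 genotypes did not pass. The comparisons of PRDM13-OE with dox share its 3 libraries. Of the listed genes, Kcng4 passed in the interaction (−0.68, SE 0.12, adjusted p = 0.00257), and Csrp1 did too (−0.93, SE 0.13, adjusted p = 0.000327).

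**Figure D3:**
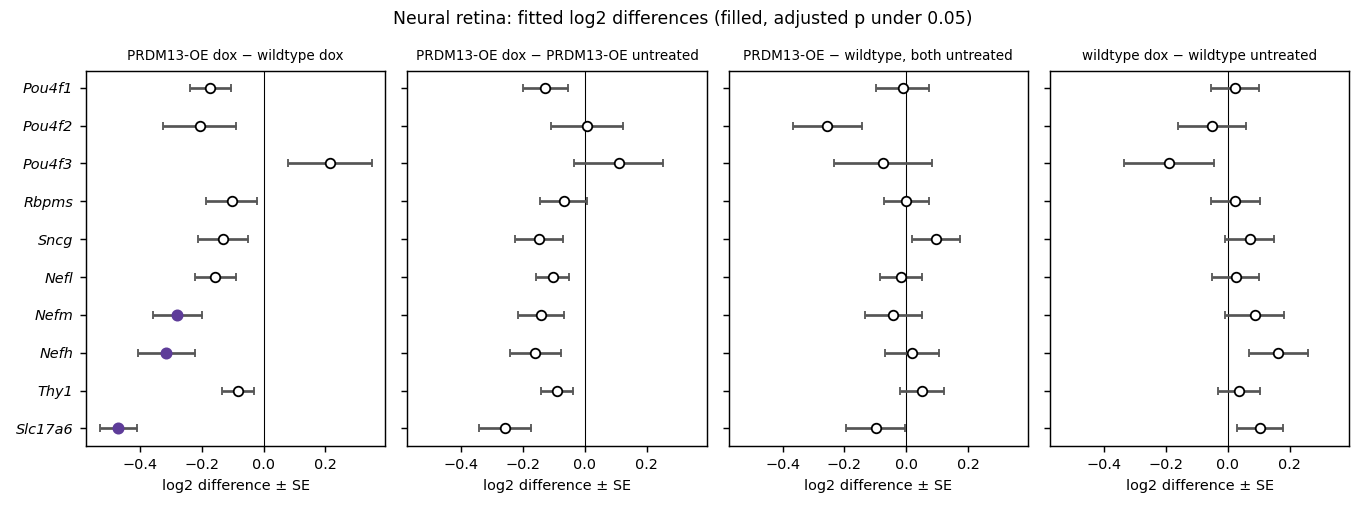
Fitted log2 differences with SE for the 10 ganglion cell genes in 4 comparisons of retinas, filled where the edgeR adjusted p was under 0.05. The filled points are Slc17a6 (−0.47), Nefh (−0.31) and Nefm (−0.28), and they occur in the comparison of PRDM13-OE with wildtype under dox.

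The genes whose pattern over the 12 retinas was most like the mean of the members' centred log2 CPM, among 14842 other genes with a mean of at least 1 CPM, were Ywhag (Pearson's r = 0.93), Sparcl1 (0.92), Exoc3 (0.92), Scn2b (0.92) and Lgi3 (0.92). The points share library scaling and group. By Spearman's rank correlation, 1 of these 5 stayed among the top 5.

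The eye cup without its retina normally holds no ganglion cell bodies, yet most of these genes were counted there. Their counts in an eye cup varied far more between mice than in the retina, with coefficients of variation from 64.4% for Thy1 to 89.1% for Slc17a6, and 16.5% for Rbpms. Nefl illustrates the range. It was at 118.0, 9.17 and 57.1 CPM in untreated wildtype eye cups, 282.0, 268.9 and 201.7 CPM in wildtype with dox, 66.3, 162.2 and 10.1 CPM in untreated PRDM13-OE, and 79.8, 40.1 and 277.3 CPM in PRDM13-OE with dox. The wildtype eye cups with dox were all high, and within each of the other groups the eye cups differed several-fold. Rbpms, in contrast, was between 26.3 and 45.7 CPM in all 12 eye cups.

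In untreated wildtype mice the tissue comparison gave 9 of 10 members lower in the eye cup than in the retina, all but Rbpms, against 29.0% of 21979 genes tested. The same 9 were DEGs, against 19.3% of genes. The log2 differences ran from −1.95 for Sncg (SE 0.42, adjusted p = 0.0053) and −2.09 for Thy1 (SE 0.36, adjusted p = 0.00183) to −3.22 for Nefm (SE 0.60, adjusted p = 0.00257) and −3.63 for Slc17a6 (SE 0.70, adjusted p = 0.00312). These sizes rest on few eye cups. Without eye cup replicate 1 of this group, the one with the most rod transcripts, the difference went to −4.60 for Slc17a6, to −4.05 from −2.80 for Pou4f1 and to −4.20 from −2.87 for Pou4f2, and without eye cup replicate 3, 7 members passed in place of 9, all lower, against 28.6% of all genes. Rbpms differed by −0.15 (SE 0.14, adjusted p = 0.39), with 33.7, 44.7 and 32.1 CPM in the eye cups. The 8 mural and smooth muscle marker genes, from cells known to make Rbpms, summed to 405 to 645 CPM in these eye cups and 103 to 125.3 CPM in these retinas, and their part in the Rbpms level was not tested.

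Regulators of ganglion cells on the other list were lower in the eye cup in 11 of 18 cases and higher in 4, against 29.0% and 32.5% of all genes. Among the lower ones were Tbr1 (−3.61, SE 0.44, adjusted p = 0.000337), Eomes (−3.50, SE 0.55, adjusted p = 0.0011) and Isl2 (−3.18, SE 0.53, adjusted p = 0.00148). All 12 other cytoskeleton and axon genes were lower, led by Kcna1 (−4.39, SE 0.49, adjusted p = 0.000218). Of the 14 other markers and subtype genes 10 were lower and 4 higher, and among the higher ones was Penk, with a log2 difference of 4.16 (SE 0.29, adjusted p = 2.22e-05). Of the 10 axon injury genes 5 were higher and 0 lower, among them Hspb1, a small heat shock protein gene (5.24, SE 0.20, adjusted p = 2.94e-06). With 10 genes, that count lies near the 32.5% of all genes that were higher.

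To set the eye cup levels against retina carried over in dissection, each eye cup was divided by the retina of the same mouse, using 1 scaling for all 24 libraries, and compared with the same percent for the sum of 10 rod genes. Rod transcripts in the eye cup were 4.53% to 73.1% of those in the retina (median 31.7%), and cone transcripts 5.19% to 84.7% (median 26.4%). The members other than Rbpms had medians over the 12 mice from 13.0% for Slc17a6 and 14.1% for Nefm to 30.5% for Thy1 and 32.7% for Sncg. Pou4f1 was at a median of 21.0%, Pou4f2 at 24.3%, Pou4f3 at 20.6%, Nefl at 23.9% and Nefh at 21.6%. The medians were 49.2% for 10 bipolar genes and 45.3% for 10 amacrine genes, lists that hold genes also expressed outside the retina. Summed as FPKM, the bipolar median was 34.6% beside 34.3% for rods, so how the bipolar list stood to the rods depended on the scale.

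The ganglion cell percents were low in the mouse with the lowest rod percent and high in the one with the highest, but mice with like rod percents could differ several-fold. In wildtype untreated mouse 2, whose rod percent of 4.53% was the lowest, the 9 members other than Rbpms were at 1.19% to 11.7%. In wildtype dox mouse 1, with the highest rod percent of 73.1%, they were at 41.4% to 71.8%. PRDM13-OE dox mouse 2 and untreated PRDM13-OE mouse 3 had rod percents of 11.4% and 11.1%, and the medians of the 9 members were 14.3% and 2.32%. Slc17a6 was below the rod percent in 12 of 12 mice, at a median of 0.556 times it (0.0580 to 0.899 times). Nefm and Pou4f1 were above it in 2 of 12 mice, Nefl and Pou4f3 in 3, and Pou4f2 in 4. Nefh, Sncg and Thy1 were above it in 7, 8 and 8 of 12 mice. In PRDM13-OE dox mouse 3, Sncg in the eye cup was at 123.4% of the retina, the only case among the 9 members of an eye cup above its own retina. Rbpms was above the rod percent in 12 of 12 mice, with a median of 85.7% of the retina level and a range of 58.6% to 109.4%.

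The 2 eye cups with the lowest rod percents were those of untreated wildtype mouse 2 and untreated PRDM13-OE mouse 3. In untreated PRDM13-OE mouse 3, Pou4f2 had 0 counts, which allows up to 3 counts and covers counting error only, and Pou4f1 had 9, Pou4f3 8 and Slc17a6 8. In the same eye cup Nefl had 162, Nefm 54, Sncg 140, Nefh 478, Thy1 553 and Rbpms 420 counts. In untreated wildtype mouse 2, Pou4f2 and Pou4f3 had 4 counts each and Pou4f1 and Slc17a6 16 each, while Nefl had 139, Nefm 82, Sncg 110, Nefh 160, Thy1 424 and Rbpms 677. These raw counts also reflect how abundant each gene is in the retina. In that wildtype mouse Nefl and Pou4f1, far apart in counts, were at 2.09% and 2.03% of their own retina levels.

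**Figure D4:**
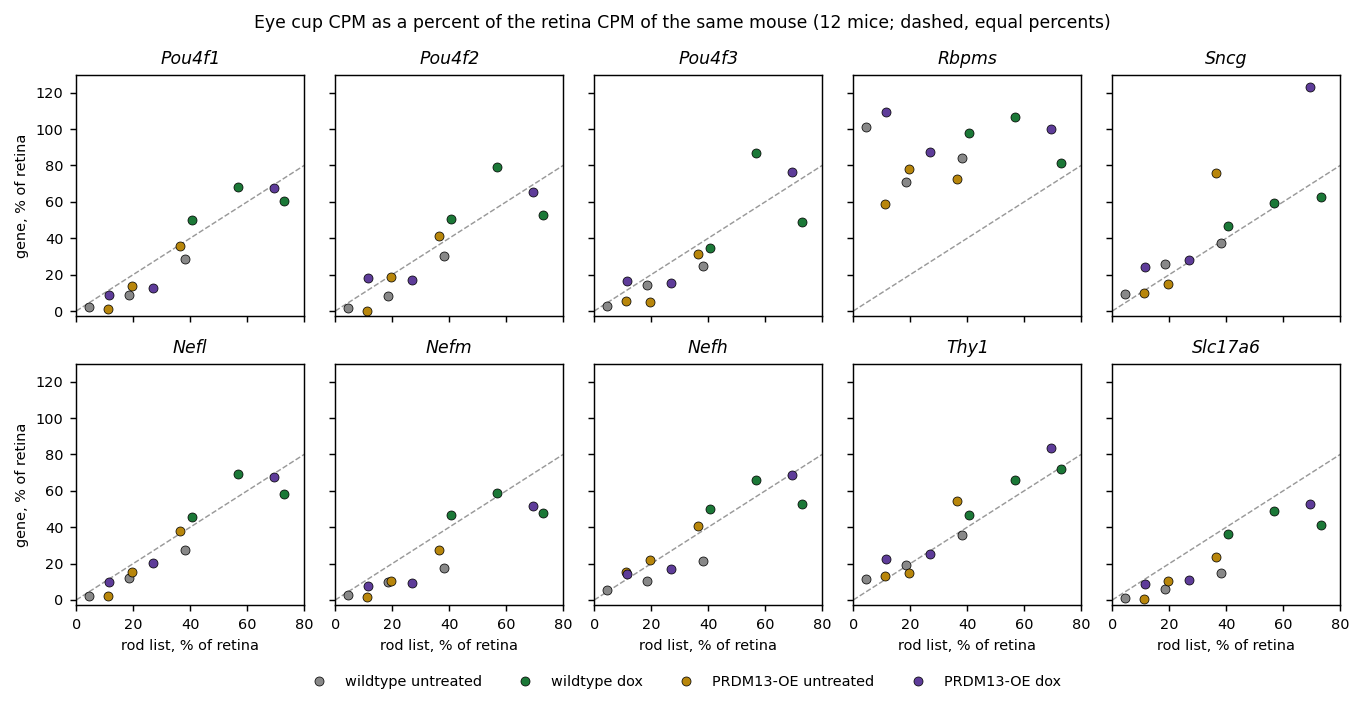
Each gene's eye cup CPM as a percent of the retina CPM of the same mouse (y axis), against the same percent for 10 rod genes (x axis), for 12 mice coloured by group, with equal percents on the dashed line. Most genes lie along or below the line, Slc17a6 is below it in all 12 mice, and Rbpms is above it in all 12.

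A fit over the 12 eye cups, with the 4 groups as a factor, gave each gene's slope on the log2 rod level, so that a slope of 1 means doubling with each doubling of rod transcripts. Of the 10 members 8 had a positive slope that passed, against 7.93% of 23837 genes. The slopes were 1.28 for Pou4f1 (SE 0.23, adjusted p = 0.00461), 1.25 for Nefl (SE 0.17, adjusted p = 0.00109), 1.19 for Slc17a6 (SE 0.25, adjusted p = 0.0114) and 1.09 for Nefm (SE 0.19, adjusted p = 0.00452). Pou4f3 had a slope of 1.00 (SE 0.22, adjusted p = 0.0157), Sncg 0.86 (SE 0.17, adjusted p = 0.00781), Nefh 0.70 (SE 0.08, adjusted p = 0.000216) and Thy1 0.68 (SE 0.11, adjusted p = 0.00305). Pou4f2 (1.09, SE 0.34, adjusted p = 0.0632) and Rbpms (−0.11, SE 0.06, adjusted p = 0.247) did not pass. Without PRDM13-OE dox replicate 3, the eye cup with the most rod transcripts of its group, 3 members passed, against 3.63% of all genes with a positive slope. With the bipolar in place of the rod level 1 member passed, when 31 genes in all did. Of 12 other cytoskeleton and axon genes 8 had a positive slope that passed, among them Scn1a (1.37, SE 0.35, adjusted p = 0.0291), Ina, alpha-internexin (1.25, SE 0.24, adjusted p = 0.00734), and Tubb3, neuronal tubulin (1.07, SE 0.13, adjusted p = 0.000465).

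Between eye cups of wildtype mice with and without dox, 0 members passed by edgeR, as 0% of 21799 genes did, but 9 had an unadjusted p under 0.05 and 8 passed by DESeq2. The share of all genes was 29.9% at an unadjusted p under 0.05 and 18.5% by DESeq2. Slc17a6 was at 41.9, 44.2 and 34.9 CPM with dox and at 13.4, 1.06 and 6.07 CPM without (log2 difference 2.49, SE 0.70, edgeR adjusted p = 0.0809). Nefh was at 129.0, 122.8 and 103.0 CPM against 37.7, 10.6 and 22.9 CPM (2.27, SE 0.43, adjusted p = 0.0673). All members but Rbpms had higher values in each of the 3 eye cups with dox than in any without, 9 of 10 against 20.2% of genes. The log2 differences of these 9 ran from 1.20 (Sncg) to 2.49 (Slc17a6), and that of Rbpms was 0.10 (SE 0.15).

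Rod transcripts differed between the same eye cups, with 24806 to 48268 CPM with dox and 3225 to 24313 CPM without. With the rod level as a covariate over all 12 eye cups, the differences were 1.03 for Slc17a6, 1.21 for Nefh, 0.39 for Nefl, 0.33 for Thy1 and −0.13 for Sncg, and 0 members passed. Without wildtype untreated replicate 1, the untreated eye cup with the most rod transcripts, 7 members passed, all higher, against 9.36% of all genes.

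Under dox, the eye cups of PRDM13-OE against those of wildtype mice gave 0 members by edgeR, 0 at an unadjusted p under 0.05 and 0 by DESeq2. The shares of all genes were 0.0184%, 8.24% and 0.547%. Slc17a6 was at 7.13, 6.60 and 37.9 CPM in PRDM13-OE with dox, so that 2 eye cups lay far below and 1 within the wildtype range of 34.9 to 44.2 CPM. The same PRDM13-OE eye cup, replicate 3, was the highest of its group for 9 of the 10 members, all but Rbpms, and had 38069 CPM of rod transcripts, against 5667 and 12238 CPM in its partners. Without it, 8 members passed, all lower, against 6.91% of all genes, with Slc17a6 at −2.47 (adjusted p = 0.00954), Nefm at −2.70 (adjusted p = 0.00954) and Pou4f1 at −2.52 (adjusted p = 0.011). With the rod level as a covariate and all eye cups kept, 0 passed, and the differences ran from −0.46 for Nefm and −0.41 for Nefh over −0.07 for Slc17a6 and 0.00 for Pou4f1 to 0.67 for Pou4f3 and 0.77 for Sncg. Nefl at 0.33, Pou4f2 at 0.32 and Thy1 at 0.17 were also positive there, where each was negative without the covariate. Untreated PRDM13-OE against untreated wildtype eye cups, and PRDM13-OE eye cups with against without dox, each gave 0 members by edgeR, 0 at an unadjusted p under 0.05 and 0 by DESeq2. The shares of all genes were 0%, 1.87% and 0.0139% for the former, and 0.0139%, 4.14% and 0.250% for the latter.

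**Figure D5:**
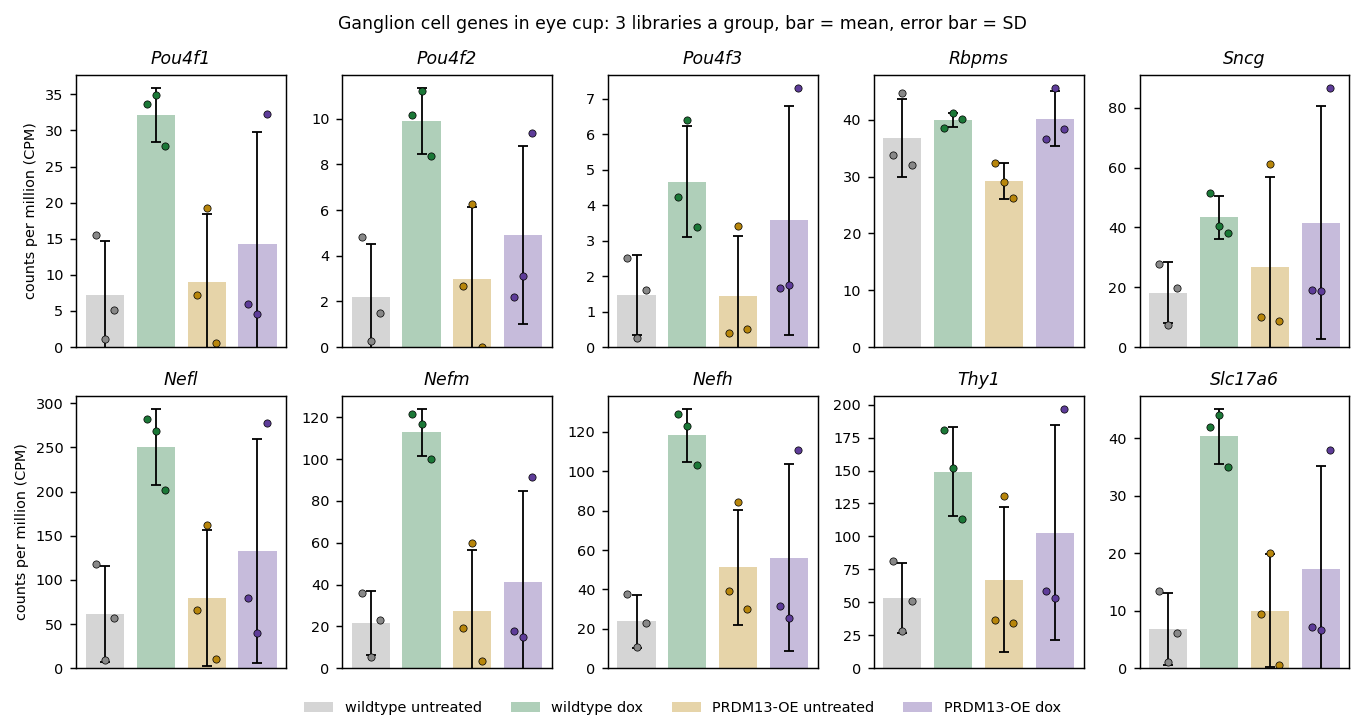
CPM of each ganglion cell gene in the 3 eye cups of each group (points), with group means (bars, from 0) and SD (error bars). Apart from Rbpms, at 26.3 to 45.7 CPM throughout, each gene has its highest group mean in wildtype with dox, and 1 eye cup of PRDM13-OE with dox stands far above the other 2.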

How the data were processed

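RNA from neural retina and eye cup of 12 mice was sequenced on Illumina instruments. The deposited counts were made for the authors by Novogene, whose processing notes name CASAVA and HISAT2 without versions, on mouse build GRCm39. The counting program, its strand setting and the annotation release are not given in the sources used here. The deposited FPKM were computed by the authors' provider from the same counts and the listed gene lengths. Here they served to compare levels between genes and as an alternative scale for the eye cup percents. The columns of the authors' own 12 comparisons (fold changes and p-values) were not used.

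Groups came from the labels. Counts of genes with at least 10 summed counts in a comparison were scaled by TMM and tested with the two-sided quasi-likelihood F test of edgeR 4.0.16 in R 4.3.3, with only the compared groups in each fit. P-values were adjusted by Benjamini-Hochberg over all genes tested, and a gene passed at an adjusted p under 0.05. A DEG also needed a log2 difference past 1 in either direction. SE is the log2 difference divided by the square root of F. The interaction used all 12 retinas, and the slope all 12 eye cups with group as a factor. DESeq2 1.42.0 was an alternative, beside library size scaling, other filters, robust fitting, 1 fit over a tissue, a replicate block, lens or rod covariates and leaving out each library. Tables and plots were made in Python 3.11.15.

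Mice are the replicates, with 3 per group, and p-values measure the spread between these mice. Counting errors are small beside it for all but the lowest eye cup values, and floors cover counting error only. No 2 libraries of the same group were copies of each other, and libraries of different groups were not compared in this way. Eye cup and retina of the same number came from the same mouse. This pairing comes from the labels, and no other comparison is paired. Over genes, their deviations in untreated wildtype mice correlated at 0.105, 0.151 and 0.131. Retinas of PRDM13-OE and wildtype mice with dox, which share only a number, gave 0.0469, 0.139 and 0.0951. The correlations therefore cannot show the pairing. Counts were simulated with 200 genes changed by 0.5 on the log2 scale. The comparison of PRDM13-OE with wildtype retinas under dox recovered 92 of them among 20158 tested. For the same comparison of eye cups, with 200 genes changed by 2, edgeR recovered 103 and DESeq2 167, so changes there can be missed. The changed genes were drawn above a higher count floor than the tests used, so genes with few counts are not covered. The members, the other gene lists and the tests were chosen with earlier results of these data known. Named were all members, up to 4 passing genes with the largest change from each of the 4 other lists per comparison described, the 5 genes most like the members, genes overlapping a member and marker lists that moved with a result. Proteins were not used here.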

Additional observations from a re-analysis of the deposited data

How the results depend on the processing

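Of 1640 values of single members under the alternatives, 0 of those that had passed changed direction, 33 no longer passed, 47 newly passed and 1560 stayed on the same side of the threshold. The cause of a change was not tested. Between PRDM13-OE and wildtype retinas under dox, 3 members passed, and 1 passed with library size alone, 1 with all 12 libraries in one fit and 1 with the crystallin covariate, 2 with robust fitting (without Nefh, adjusted p = 0.138), 4 without a filter (with Nefl, adjusted p = 0.0184), and between 1 and 4 when 1 library was left out. For dox within PRDM13-OE retinas, 1 passed without a filter, and 0 to 1 with 1 library left out. For the interaction, 1 passed by DESeq2, 2 without a filter, and 0 to 1 with 1 library left out. For PRDM13-OE against wildtype eye cups under dox, 0 to 8 passed with 1 library left out. For dox in wildtype eye cups, 8 passed by DESeq2, 2 with library size alone, 4 without a filter, and 0 to 7 with 1 library left out. For the slope, 1 passed on the bipolar level, and 3 to 9 with 1 library left out. In the tissue comparison 7 to 10 passed with 1 library left out.

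Over all genes, the retinal comparison under dox gave 2575 passing genes, 576 with the crystallin covariate and 1504 to 2209 with 1 library left out. For dox in wildtype eye cups 0 genes passed by edgeR, 4039 by DESeq2 and, under scaling to library size, 1143 upward and 205 downward, and 0 to 2853 with 1 library left out. Under dox the eye cups of both genotypes differed in 4 genes, in up to 119 under the other settings, and in 0 to 2209 with 1 library left out. Of the comparisons with 0 members throughout, dox in wildtype retinas gave 1 gene, up to 588 under other settings and up to 184 with 1 library left out, untreated retinas of both genotypes 1, up to 104 and up to 5, untreated eye cups 0, up to 3 and up to 298, and dox in PRDM13-OE eye cups 3, up to 54 and up to 4. For dox within PRDM13-OE retinas 1031 genes became 605 to 1658 over all settings, and for the interaction 682 became 453 to 1433. By Spearman's in place of Pearson's correlation, 1 of the 5 genes most like the members stayed. The slope passed for 2524 genes, for 3934 by DESeq2, for 31 on the bipolar level and for 886 to 2772 with 1 library left out. Scaling to library size alone moved the median of all genes to 0.13 for dox in wildtype eye cups, 0.17 for dox in PRDM13-OE eye cups and −0.24 for the tissues.

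The replicate block by mouse number kept 9 members in the tissue comparison, where it moved the passing genes from 13528 to 12038, and changed no other member count except 9 for the slope in place of 8. Same-numbered retinas of the comparison under dox share only a number (correlations 0.0469, 0.139 and 0.0951), and the block left 3 members there. Depth limits only the lowest eye cup values, such as Pou4f2 at 0 counts.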
